A study of Mus musculus with 15 samples.

Results

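Pdgfra, Cspg4, Vcan, Ptprz1, Olig1, Olig2, Sox10, Gpr17 and Bcas1 are 9 genes that mark oligodendrocyte precursors and the cells that descend from them. They were picked by name as rows of a count table from mouse brain that holds 30386 genes. No measured value enters the rule, but it was written with earlier results of these data known. All 9 were found in the table, and all 9 were among the 11718 genes with enough reads to be tested.

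Oligodendrocytes wrap axons in myelin, and in the adult brain they arise from precursor cells that keep dividing throughout life. Precursors depend on platelet-derived growth factor, which they sense through the receptor Pdgfra, and they carry a coat of chondroitin sulphate proteoglycans that includes Cspg4 (NG2), Vcan (versican) and the receptor phosphatase Ptprz1. The transcription factors Olig1, Olig2 and Sox10 specify the lineage and stay on as it matures. Cells that leave the cycle to differentiate pass through a committed state marked by the receptor Gpr17 and by Bcas1, a protein of cells that have begun to make myelin. Several of these genes are also used elsewhere in the brain, with Cspg4 and Pdgfra in cells around vessels and in the meninges, and Ptprz1 in astrocytes.

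Gene expression was measured by QuantSeq, a sequencing method that counts reads from the 3′ ends of polyadenylated RNA. Het_B12 were Tbx1+/- mice injected intraperitoneally with vitamin B12 in PBS at 20 mg/kg, 2 times a week for 4 weeks from 4 weeks of age. Het_PBS were Tbx1+/- mice and WT_PBS were wild-type mice, both given PBS on the same schedule from the same age. Each group had 5 libraries, and none of the 15 libraries was of a wild type given vitamin B12. Tbx1 encodes a T-box transcription factor, and losing 1 copy of it models a human deletion syndrome. The sources used here do not say which part of the gene the mutant allele lacks. They call the tissue brain hemisphere for each sample and whole brain in the design, so every value is an average over many cell types, and fewer cells of a type and less RNA per cell cannot be told apart.

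The libraries held 1683258 to 2746122 counts, so that 3 counts stood for 1.09 to 1.78 CPM (counts per 1000000 counts of the library). Tbx1 itself had 0 or 1 read in Het_B12 libraries, 0 to 3 in Het_PBS libraries and 0 to 3 in WT_PBS libraries, too few to check the genotype from these counts. Reads assigned to Gm42418, which overlaps a ribosomal RNA repeat, made up 5.29% ± 1.25 of all counts in Het_B12, 8.52% ± 1.73 in Het_PBS and 11.9% ± 1.78 in WT_PBS (SD, n = 5 each). The groups did not overlap in this share, with ranges of 3.31% to 6.28%, 6.47% to 10.3% and 10.6% to 14.9%. It therefore cannot be told apart from group, and its part in the levels below was not tested. Among the alternatives below is a scaling whose totals leave out Gm42418 and mitochondrial genes, which changes the scaling only. On the first principal component the Het_B12 libraries lay between 19.1 and 32.8 and the PBS libraries between −22.4 and −10.2, except WT_PBS replicate 3 at 17.8. Het_PBS replicate 5 stood apart on the second component, at −43.5. The labels do not say outright that libraries are of separate mice, and Het_PBS replicate 5 and Het_B12 replicate 1 carry the same animal number. P-values therefore measure the spread among libraries, which may be technical in part. To check the tissue label, 14 neuronal markers were summed and held 10183 to 11107 CPM in Het_B12, 10224 to 11658 CPM in Het_PBS and 10267 to 12066 CPM in WT_PBS. Not one of the 9 genes was at 0 in any library.

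Ptprz1 and Bcas1 were far more abundant than the other members. Over the 15 libraries Ptprz1 averaged 263 CPM and Bcas1 249 CPM, which put them at the 94.9 and 94.6 percentile of the genes tested. Olig1 followed with 89.8 CPM, then Sox10 with 49.5, Olig2 with 31.8, Vcan with 22.6, Gpr17 with 15.8, Pdgfra with 13.0 and Cspg4 with 8.60 CPM. These are levels in CPM of 3′ reads, which are not divided by transcript length. Ptprz1 exceeded Bcas1 in 8 of 15 libraries, and their order differed by group. Bcas1 reads per Ptprz1 read ran from 1.03 to 1.19 in Het_PBS, so Bcas1 was higher in each of its libraries. The ratio ran from 0.706 to 1.16 in Het_B12 and from 0.711 to 1.27 in WT_PBS, and in both Ptprz1 had the higher mean CPM. Bcas1 exceeded Olig1, Olig1 exceeded Sox10 and Sox10 exceeded Olig2 in all 15. Olig2 exceeded Vcan in 13 of 15, Vcan exceeded Gpr17 in 11, Gpr17 exceeded Pdgfra in 10 and Pdgfra exceeded Cspg4 in 11. In Het_B12 the means of the last pair were reversed, with Cspg4 at 11.8 CPM and Pdgfra at 10.8 CPM. Of all neighbours only Bcas1 and Olig1 had ranges over the 15 libraries that did not overlap.

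The less abundant members also varied most between libraries. The highest library exceeded the lowest 1.67-fold for Ptprz1, 1.94-fold for Sox10, 2.13-fold for Bcas1, 2.16-fold for Olig2, 2.26-fold for Olig1 and 2.83-fold for Vcan. The same ratio was 3.99 for Pdgfra, 4.02 for Gpr17 and 4.17 for Cspg4. Pdgfra was covered by 12 to 50 reads per library and Cspg4 by 10 to 54, whereas Bcas1 had 342 to 858 reads and Ptprz1 456 to 835. Together the 9 genes summed to 651 ± 35.3 CPM in Het_B12 (range 592 to 680), 771 ± 66.1 CPM in Het_PBS (722 to 866) and 807 ± 83.6 CPM in WT_PBS (673 to 898; SD, n = 5 each). The Het_B12 sums lay below every Het_PBS sum and overlapped those of WT_PBS through WT_PBS replicate 3, and Bcas1 and Ptprz1 made up most of them. These sums are of scaled CPM, and as shares of all counts before scaling Het_B12 and Het_PBS overlapped.

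**Figure D1:**
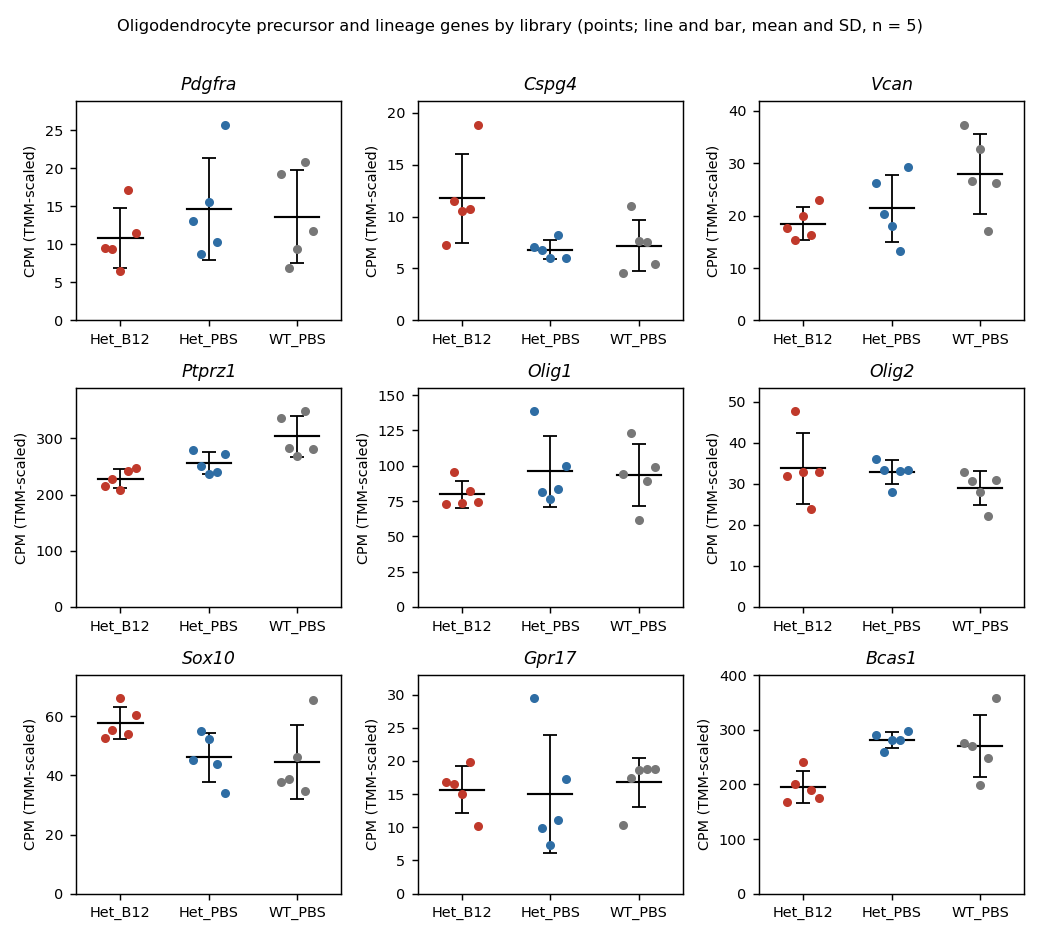
Scaled CPM (vertical axis, from 0) of each of the 9 genes in every library, with 1 point per library, the group mean as a line and the SD as a bar (n = 5 per group). Bcas1 is lower in every Het_B12 library (168 to 242 CPM) than in every Het_PBS library (259 to 298 CPM), and Ptprz1 is lower in every Het_B12 library (209 to 248 CPM) than in every WT_PBS library (269 to 348 CPM).

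Whether vitamin B12 altered these genes in Tbx1 heterozygotes was asked by setting Het_B12 against Het_PBS. Bcas1 fell in Het_B12 brains, and it was the only member of the 9 that passed the test. Among all genes tested, 7.26% passed (851 of 11718), with 3.47% higher and 3.79% lower in Het_B12, so 1 of 9 members is close to the share over all genes. The median log2 fold change of the members was −0.16, with 4 of 9 above 0, beside 0.012 over all genes. At an unadjusted p under 0.05 stood 2 of the 9 members, Bcas1 and Cspg4, against 21.7% of all genes.

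Bcas1 (ENSMUSG00000013523; GRCm38 chromosome 2, 170346991 to 170427845, minus strand) marks oligodendrocytes in the early phase of myelination. It had 168, 200, 242, 189 and 175 CPM in the Het_B12 libraries, against 291, 259, 281, 282 and 298 CPM in the Het_PBS libraries. The highest Het_B12 library lay below the lowest Het_PBS library, and no other member separated these groups. Over all genes tested 7.83% separated them, 4.07% lower and 3.75% higher in Het_B12. The group means were 195 ± 29.2 CPM in Het_B12 and 282 ± 14.5 CPM in Het_PBS (SD, n = 5 each). Bcas1 was thus 1.44-fold lower in Het_B12, with a log2 fold change of −0.53 ± 0.12 (SE; 95% interval −0.78 to −0.28) and an edgeR quasi-likelihood adjusted p of 0.00482. It stayed called under all 21 alternatives, among them leaving out Het_PBS replicate 5 and WT_PBS replicate 3 together (−0.52, adjusted p = 0.00266).

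Gpr17 (ENSMUSG00000052229; chromosome 18, 31942997 to 31949636, minus strand), the receptor of committed precursors, was not called. It had 16.8, 16.5, 14.9, 19.9 and 10.1 CPM in the Het_B12 libraries, against 29.5, 9.95, 7.33, 11.2 and 17.3 CPM in the Het_PBS libraries. Het_PBS held both the highest and the lowest value of these 10 libraries, and the log2 fold change was 0.07 ± 0.29 (95% interval −0.52 to 0.65, adjusted p = 0.93). This interval overlaps that of Bcas1, and the difference between the genes was not tested. Gpr17 had 17 to 63 reads per library, and its CV in Het_PBS was 58.9%, beside 18.9% that counting alone gives. Gpr17 overlaps Lims2 on the opposite strand, and whether the counting used strand is not stated. Lims2 had 282 reads over the 15 libraries, or 51.8% of the 544 reads of Gpr17, so the split of reads between the pair is uncertain.

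The lineage factors gave no call. Sox10 (ENSMUSG00000033006; chromosome 15, 79154908 to 79165240, minus strand), which drives myelin gene transcription, had 52.7, 55.5, 66.2, 54.0 and 60.3 CPM in Het_B12, against 45.4, 54.9, 52.2, 43.8 and 34.1 CPM in Het_PBS. Only Het_PBS replicate 2 reached the Het_B12 range, with a log2 fold change of 0.32 ± 0.16 (95% interval −0.01 to 0.65, adjusted p = 0.246). Its sign was opposite to that of Bcas1, in the same libraries.

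Olig1 and Olig2, paired basic helix-loop-helix factors, lie next to each other on chromosome 16 on the plus strand. Olig2 (ENSMUSG00000039830) spans 91225457 to 91228677 and Olig1 (ENSMUSG00000046160) spans 91269772 to 91271933, with 41094 bases between them. Olig1 had 72.7, 95.7, 73.7, 82.2 and 74.6 CPM in Het_B12, against 139, 81.6, 76.8, 83.4 and 99.8 CPM in Het_PBS, with a log2 fold change of −0.26 ± 0.16 (adjusted p = 0.337). Het_PBS replicates 1 and 5 lay above every Het_B12 library, and the other Het_PBS libraries lay within the Het_B12 range. Olig2 had 31.8, 47.7, 32.9, 23.8 and 32.8 CPM in Het_B12, against 36.0, 33.4, 28.0, 33.0 and 33.5 CPM in Het_PBS, with a log2 fold change of 0.05 ± 0.18 (95% interval −0.31 to 0.41, adjusted p = 0.919). The Het_B12 libraries enclosed the whole Het_PBS range of Olig2.

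Among the surface and matrix genes of precursors, Cspg4 had the largest estimated difference of the 9 genes, and it did not pass. Cspg4 (ENSMUSG00000032911; chromosome 9, 56865033 to 56899870, plus strand) had 7.27, 11.5, 10.5, 10.7 and 18.8 CPM in Het_B12, against 7.02, 6.77, 6.04, 8.26 and 5.98 CPM in Het_PBS. These rest on 16, 32, 31, 27 and 54 reads in Het_B12 and on 15, 17, 14, 20 and 10 reads in Het_PBS. Of the Het_B12 libraries 4 of 5 exceeded all Het_PBS libraries, and replicate 1 lay within their range. The log2 fold change was 0.79 ± 0.32 (95% interval 0.14 to 1.44), with an unadjusted p of 0.0191 and an adjusted p of 0.134. Leaving out Het_B12 replicate 5 brought it to 0.55 (adjusted p = 0.389).

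Pdgfra (ENSMUSG00000029231; chromosome 5, 75152292 to 75198215, plus strand), the growth factor receptor, pointed the other way. It had 9.55, 9.32, 6.45, 17.1 and 11.5 CPM in Het_B12, against 13.1, 8.76, 15.5, 10.3 and 25.7 CPM in Het_PBS, with a log2 fold change of −0.42 ± 0.32 (95% interval −1.06 to 0.22, adjusted p = 0.479). The groups overlapped over most of their range. The pair of classical precursor markers thus had estimates of opposite sign, neither of which passed.

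Vcan (ENSMUSG00000021614; chromosome 13, 89655312 to 89742509, minus strand), a secreted proteoglycan of the matrix, had 17.7, 15.4, 20.0, 16.3 and 23.0 CPM in Het_B12, against 26.2, 20.3, 18.1, 13.2 and 29.3 CPM in Het_PBS (log2 fold change −0.19 ± 0.23, adjusted p = 0.684). Ptprz1 (ENSMUSG00000068748; chromosome 6, 22875502 to 23052916, plus strand), which binds pleiotrophin, had 215, 229, 209, 242 and 248 CPM in Het_B12, against 279, 251, 237, 241 and 273 CPM in Het_PBS. Its log2 fold change was −0.16 with a 95% interval of −0.38 to 0.05 (adjusted p = 0.382). Neither proteoglycan separated the groups.

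**Figure D2:**
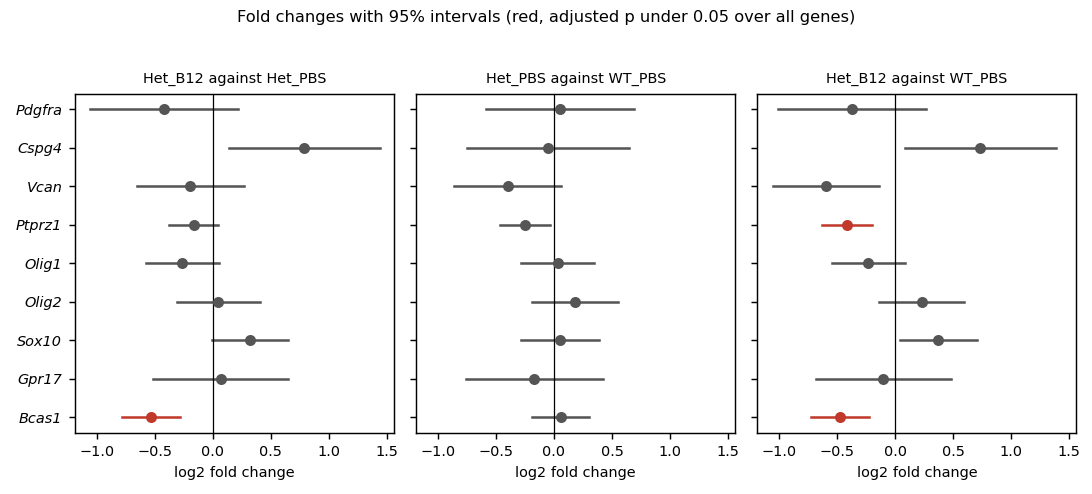
Log2 fold changes (horizontal axis) of the 9 genes with 95% intervals from the edgeR fit, 1 panel per comparison; red marks an adjusted p under 0.05 over all 11718 genes. Bcas1 is below 0 and red in both comparisons that involve Het_B12, Ptprz1 is red against WT_PBS only, and no gene is red between Het_PBS and WT_PBS.

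The effect of Tbx1 heterozygosity alone was asked by setting Het_PBS against WT_PBS. None of the 9 genes passed, and 0% of all genes tested passed in the edgeR fit, with a smallest adjusted p of 0.125. DESeq2 and limma-voom likewise called 0 of the 9. At an unadjusted p under 0.05 stood 1 of 9 members, beside 7.5% of all genes. The median log2 fold change of the members was 0.034, beside −0.0070 over all genes. No member separated the groups, beside 0.836% of all genes tested (0.444% lower and 0.393% higher in Het_PBS).

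Ptprz1 was that 1 member. It had 279, 251, 237, 241 and 273 CPM in Het_PBS, against 337, 283, 269, 348 and 282 CPM in WT_PBS, a log2 fold change of −0.25 (95% interval −0.46 to −0.04, unadjusted p = 0.0232, adjusted p = 0.6). The groups overlapped in that Het_PBS replicates 1 and 5 exceeded the lowest WT_PBS library. Vcan averaged 21.4 ± 6.41 CPM in Het_PBS and 28.0 ± 7.64 CPM in WT_PBS, with a log2 fold change of −0.40 ± 0.23 (adjusted p = 0.713). Bcas1 averaged 282 ± 14.5 CPM in Het_PBS and 270.5 ± 57.6 CPM in WT_PBS, a log2 fold change of 0.06 with a 95% interval of −0.19 to 0.30 (adjusted p = 0.957). For Bcas1 that interval leaves out a difference of the size seen between Het_B12 and Het_PBS.

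The other 6 members had adjusted p of 0.871 to 0.986 between Het_PBS and WT_PBS. Olig1, Pdgfra and Sox10 had log2 fold changes of 0.03, 0.05 and 0.05, Cspg4 −0.05, Olig2 0.18 and Gpr17 −0.17. The 95% intervals were wide for the scarce genes, from −0.58 to 0.69 for Pdgfra, from −0.74 to 0.64 for Cspg4 and from −0.76 to 0.42 for Gpr17. They were narrower for Olig1, from −0.28 to 0.35, and for Sox10, from −0.28 to 0.39.

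Set against WT_PBS, Het_B12 had lower Ptprz1 and lower Bcas1, the 2 members of 9 that passed. Over all genes 7.33% passed (859 of 11718), with 3.22% higher and 4.11% lower in Het_B12. The median of the members was −0.23, with 3 of 9 above 0, beside 0.0073 over all genes, and 5 of 9 members stood at an unadjusted p under 0.05, beside 21.6% of all genes. Each comparison shares libraries with the others, so the 3 sets of values are not independent.

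Ptprz1 had 215, 229, 209, 242 and 248 CPM in Het_B12, against 337, 283, 269, 348 and 282 CPM in WT_PBS. Every Het_B12 library lay below every WT_PBS library, and no other member separated these groups. Over all genes tested 5.38% separated them, 2.94% lower and 2.44% higher in Het_B12. The log2 fold change was −0.41 ± 0.10 (SE; 95% interval −0.62 to −0.20), or 1.33-fold lower in Het_B12, with an adjusted p of 0.0116. It passed under all 21 alternatives. The Het_PBS mean of this gene lay between the others, while its libraries overlapped both other groups. The group means were 228 ± 16.7 CPM in Het_B12, 256 ± 18.9 CPM in Het_PBS and, in WT_PBS, 304 ± 36.0 CPM (SD, n = 5 each).

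Bcas1 had 168, 200, 242, 189 and 175 CPM in Het_B12, against 275, 271, 199.8, 248 and 359 CPM in WT_PBS. The groups overlapped through WT_PBS replicate 3, the wild-type library that lay near Het_B12 on the first principal component. The log2 fold change was −0.47 ± 0.12 (95% interval −0.72 to −0.23, 1.39-fold lower in Het_B12) with an adjusted p of 0.0132. This call was lost without WT_PBS replicate 5 (−0.35, adjusted p = 0.0931) and without Het_B12 replicate 1 (−0.43, adjusted p = 0.0513), and leaving out Het_B12 replicate 1 left 1 of the 9 genes called. Leaving out WT_PBS replicate 3 together with Het_PBS replicate 5 gave −0.57 (adjusted p = 0.000606).

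Vcan, Cspg4 and Sox10 stood at an unadjusted p under 0.05 against WT_PBS without passing. Vcan averaged 18.5 ± 3.08 CPM in Het_B12 and 28.0 ± 7.64 CPM in WT_PBS, a log2 fold change of −0.59 ± 0.22 (adjusted p = 0.105). Without WT_PBS replicate 4, the lowest WT_PBS library, it passed (−0.73, adjusted p = 0.0463), which made 3 members called. Cspg4 averaged 11.8 ± 4.27 CPM in Het_B12 and 7.21 ± 2.50 CPM in WT_PBS, a log2 fold change of 0.74 ± 0.32 (adjusted p = 0.17). Sox10 averaged 57.8 ± 5.53 CPM in Het_B12 and 44.6 ± 12.5 CPM in WT_PBS, a log2 fold change of 0.37 ± 0.16 (adjusted p = 0.169). WT_PBS replicate 5, at 65.6 CPM, lay among the Het_B12 libraries for Sox10 and was the highest of all 15 for Bcas1, and without it Sox10 passed (0.56, adjusted p = 0.0414). The remaining 4 genes, Olig1, Olig2, Pdgfra and Gpr17, had log2 fold changes of −0.23, 0.23, −0.37 and −0.10, with adjusted p of 0.413 to 0.879.

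Ratios of reads within a library do not depend on how libraries are scaled. Sox10 reads per Bcas1 read were 0.299 ± 0.0303 in Het_B12 (range 0.273 to 0.345), 0.165 ± 0.0366 in Het_PBS (0.114 to 0.212) and 0.167 ± 0.0405 in WT_PBS (0.137 to 0.231; SD, n = 5 each). All 5 Het_B12 libraries exceeded all 10 PBS libraries, WT_PBS replicate 3 included. This pair was chosen after its values were seen, so no test was made of it. Cspg4 reads per Pdgfra read averaged 1.18 ± 0.473 in Het_B12, 0.546 ± 0.244 in Het_PBS and 0.691 ± 0.543 in WT_PBS, with overlapping ranges. Bcas1 reads per 1000 reads of 20 myelin genes averaged 30.3 ± 3.14 in Het_B12, 37.9 ± 5.37 in Het_PBS and 41.4 ± 7.93 in WT_PBS, and the ranges overlapped here too.

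**Figure D3:**
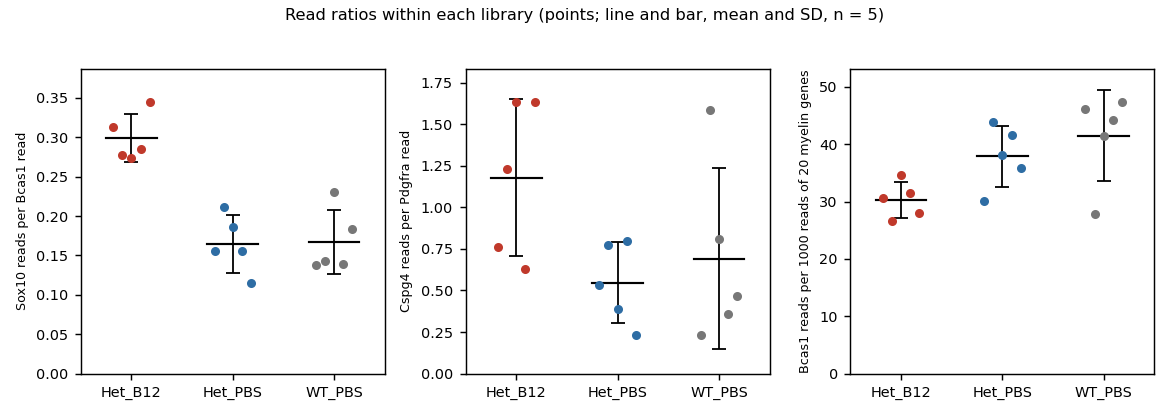
Ratios of reads within each library (vertical axes, from 0), with 1 point per library, the group mean as a line and the SD as a bar (n = 5 per group). Sox10 reads per Bcas1 read separate Het_B12 (0.273 to 0.345) from all PBS libraries (0.114 to 0.231), whereas Cspg4 reads per Pdgfra read and Bcas1 reads per 1000 myelin reads overlap between the groups.

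Other genes of the lineage were read from lists arranged by stage. Of 20 other precursor genes 19 were tested, and none was called in Het_B12 against Het_PBS, with a median log2 fold change of 0.04. The smallest p there belonged to Xylt1, an enzyme that starts proteoglycan side chains, at 21.4 ± 1.37 CPM in Het_B12 and 13.9 ± 1.45 CPM in Het_PBS (0.63 ± 0.22, adjusted p = 0.0714). Id2, an inhibitor of differentiation factors, averaged 385 CPM in Het_B12 and 475 CPM in Het_PBS (−0.30 ± 0.11, adjusted p = 0.0924). Megf11 (0.56, adjusted p = 0.167) and Pcdh15 (0.55, adjusted p = 0.225) followed. Against WT_PBS 1 of 19 was called, Id2, which fell in Het_B12 (385 ± 59.1 CPM in Het_B12, 506 ± 78.2 CPM in WT_PBS; −0.40 ± 0.11, adjusted p = 0.0248), and the list median was −0.12. The call of Id2 was lost without WT_PBS replicate 1 or 4 or without Het_B12 replicate 1 or 2 (adjusted p of 0.0511 to 0.123). Id2 also weighed heavily in the list, whose 20 genes summed to a mean of 1022 CPM in Het_B12 and 1170 CPM in WT_PBS. Which cells made Id2 was not tested. The matrix protein Matn4 (−0.83, adjusted p = 0.0605), the sulphatase Sulf2 (0.49, adjusted p = 0.0657) and the guidance molecule Sema5a (−0.36, adjusted p = 0.0841) did not pass. Under the alternatives Matn4 passed in 8 of 20, Sulf2 in 3 of 21 and Sema5a in 1 of 21. With single libraries left out 0 to 2 of the 19 were called. Between Het_PBS and WT_PBS none was called, with a median of −0.14, and Sema5a had the smallest p (−0.31 ± 0.13, adjusted p = 0.599).

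Of 16 other genes of committed precursors and newly formed oligodendrocytes 14 were tested, and none was called in any comparison, though 2 were against WT_PBS without WT_PBS replicate 2. With no filter on low counts 1 of the 16 was called against WT_PBS. The medians of the 14 were −0.10 in Het_B12 against Het_PBS, 0.059 in Het_PBS against WT_PBS and 0.087 in Het_B12 against WT_PBS. Closest to a call was Sirt2, a deacetylase of oligodendrocytes, at 115 ± 11.2 CPM in Het_B12 and 84.6 ± 14.8 CPM in Het_PBS (0.44 ± 0.15, adjusted p = 0.0544), which passed under 8 of 21 alternatives. Mpzl1 (0.72, adjusted p = 0.124), the kinase Fyn (−0.30, adjusted p = 0.161) and Cnksr3 (−0.95, adjusted p = 0.18) did not pass against Het_PBS. Bmp4, a growth factor made by committed precursors, averaged 14.3 CPM in Het_B12 and 7.41 CPM in WT_PBS (0.99 ± 0.36, adjusted p = 0.0938). It passed under 2 of 20 alternatives.

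All 20 myelin genes were tested, and 4 fell in Het_B12 against Het_PBS, with a list median of −0.14. None was called higher with all libraries. Of the 20, 7 were above 0, up to 0.63. For 3 every Het_B12 library lay below every Het_PBS library, and for 1 every Het_B12 library lay above. Over all genes tested 4.07% separated lower and 3.75% higher in Het_B12. Without Het_PBS replicate 5, 1 myelin gene was called higher and 3 lower. Mobp, a structural protein of compact myelin, averaged 739 ± 51.9 CPM in Het_B12 and 1185 ± 176 CPM in Het_PBS (−0.68 ± 0.13, adjusted p = 0.000727). Apod, a lipid carrier, averaged 223 ± 20.1 CPM in Het_B12 and 304 ± 54.2 CPM in Het_PBS (−0.44 ± 0.12, adjusted p = 0.0161). Mal, a proteolipid of myelin membranes, averaged 247 ± 32.9 CPM in Het_B12 and 356 ± 67.4 CPM in Het_PBS (−0.52 ± 0.14, adjusted p = 0.0192). Ermn, a cytoskeletal protein of mature oligodendrocytes, averaged 74.0 ± 4.92 CPM in Het_B12 and 105 ± 7.10 CPM in Het_PBS (−0.50 ± 0.14, adjusted p = 0.0199). Apod was no longer called without Het_PBS replicate 3 or 5 or Het_B12 replicate 4 (adjusted p up to 0.0643), Mal without Het_PBS replicate 1 or Het_B12 replicate 1 (up to 0.0844) and Ermn without Het_B12 replicate 1 (0.0603), where 2 of the 20 were called. Against WT_PBS 2 of 20 fell, Ermn (−0.60, adjusted p = 0.00588) and Mobp (−0.54, adjusted p = 0.00668), with a list median of −0.15. In that comparison 6 of 20 were above 0, up to 0.49. For 2 every Het_B12 library lay below every WT_PBS library, and for 1 every Het_B12 library lay above, beside 2.94% and 2.44% of all genes. Without WT_PBS replicate 2, 1 myelin gene was called higher and 2 lower. Ermn was lost without WT_PBS replicate 5 (adjusted p = 0.0586), which left 1 call, and without WT_PBS replicate 3 there were 4. The other 16 myelin genes were not called in either of these comparisons, and none of the 20 was called between Het_PBS and WT_PBS (median −0.039), where Mbp, myelin basic protein, had the smallest p (0.26 ± 0.16, adjusted p = 0.73).

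**Figure D4:**
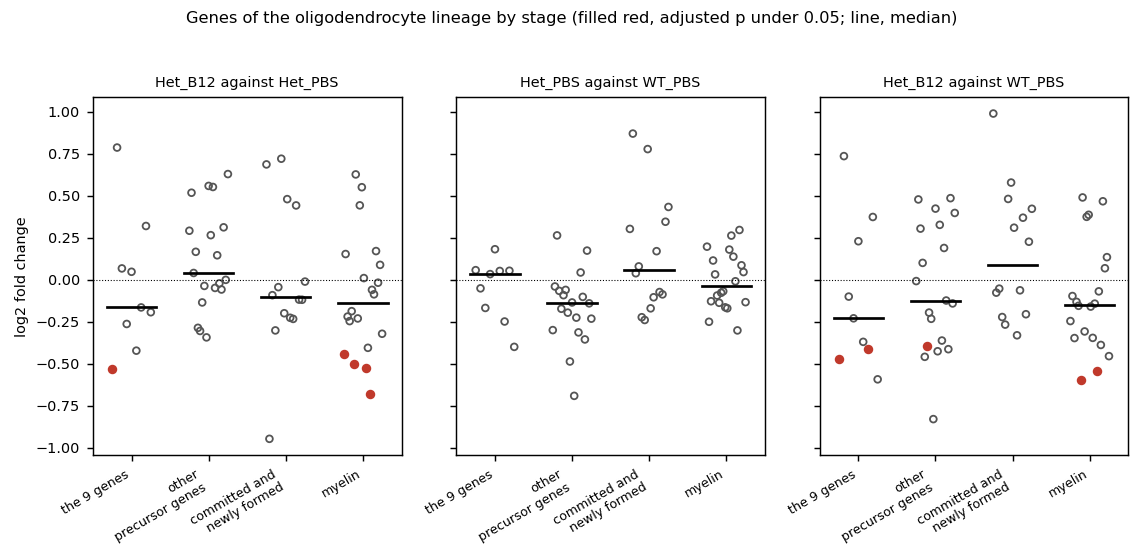
Log2 fold changes (vertical axis) of the 9 genes, the other precursor genes, the genes of committed and newly formed oligodendrocytes, and the myelin genes, with 1 point per gene, the median as a line and genes with an adjusted p under 0.05 in filled red. The medians lie between −0.23 and 0.087 in every panel, and all called genes, 5 against Het_PBS and 5 against WT_PBS, are below 0.

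Ligands and matrix partners of the precursor receptors gave no call in any comparison, and 1 call against WT_PBS without WT_PBS replicate 2, WT_PBS replicate 3 or Het_B12 replicate 5. They also gave 1 call against WT_PBS with no filter on low counts and without WT_PBS replicate 3 and Het_PBS replicate 5 together. Against Het_PBS they gave 1 call when only the 2 groups compared were fitted. This list had 17 genes, of which 12 were tested, with medians of −0.15 in Het_B12 against Het_PBS, 0.20 in Het_PBS against WT_PBS and 0.11 in Het_B12 against WT_PBS. Pdgfa, the growth factor that Pdgfra binds, averaged 87.0 ± 8.79 CPM in Het_B12 and 99.3 ± 10.8 CPM in Het_PBS (−0.19 ± 0.13, adjusted p = 0.411). The same gene had the smallest p of the list between Het_PBS and WT_PBS (0.35 ± 0.13, adjusted p = 0.532). Ptn (pleiotrophin), a ligand of Ptprz1, gave −0.32 ± 0.13 against Het_PBS (adjusted p = 0.14) and −0.36 ± 0.13 against WT_PBS (adjusted p = 0.0951). It passed under 1 of 21 alternatives against Het_PBS and under 4 of 21 against WT_PBS. The relative of Ptn, Mdk (midkine), gave −0.57 (adjusted p = 0.159) and the proteoglycan Bcan −0.23 (adjusted p = 0.199) against Het_PBS.

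Markers of cell types that share some of these genes differed between the same groups. Of 15 astrocyte markers 10 fell in Het_B12 against Het_PBS and 8 against WT_PBS, and their summed level was 5589 to 6577 CPM in Het_B12, 8283 to 9310 CPM in Het_PBS and 6789 to 9133 CPM in WT_PBS. Without WT_PBS replicate 5 the count against WT_PBS was 5. Ptprz1 is also made by astrocytes, and the part of astrocytes in its lower level was not tested. Of 12 microglial markers 5 fell against Het_PBS and 6 against WT_PBS, with sums of 394 to 492 CPM in Het_B12, 611 to 838 CPM in Het_PBS and 464 to 809 CPM in WT_PBS. For both lists the lowest WT_PBS library was replicate 3. Of 14 neuronal markers 1 rose in each of these comparisons, and 0 to 2 were called, in either direction, with single libraries left out.

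Cspg4 and Pdgfra are shared with cells of the vessel wall and the meninges. Of 15 mural and fibroblast markers 8 were tested, and 3 fell against Het_PBS and 3 against WT_PBS, with none called higher. Mgp, Dcn and Col1a2 fell against Het_PBS, and Col1a1, Col1a2 and Dcn against WT_PBS. In each comparison 3 of 8 were above 0, the pericyte marker Rgs5 among them. Under the alternatives Rgs5 ran from 0.26 to 0.42 against Het_PBS and was never called. Against WT_PBS it ran from 0.35 to 0.54 and passed under 2 of 21. The list summed to 191 to 233 CPM in Het_B12, 229 to 291 CPM in Het_PBS and 170 to 326 CPM in WT_PBS. Of 12 endothelial markers 10 were tested, and 6 rose against Het_PBS and 6 against WT_PBS, with sums of 234 to 332 CPM in Het_B12, 116 to 169 CPM in Het_PBS and 118 to 165 CPM in WT_PBS. Against Het_PBS the count of mural and fibroblast markers was 1 without Het_PBS replicate 1, 2 or 4 or Het_B12 replicate 4 or 5, and that of endothelial markers was 3 without Het_PBS replicate 4 or Het_B12 replicate 1 or 3. The 20 myelin genes summed to 5496 to 7550 CPM in Het_B12, 5908 to 9684 CPM in Het_PBS and 4819 to 9750 CPM in WT_PBS, so those ranges overlapped, and the 20 other precursor genes summed to 980 to 1065 CPM in Het_B12, 1014 to 1175 CPM in Het_PBS and 1031 to 1293 CPM in WT_PBS. No marker of these cell types was at 0 in a whole group. The part of these cell types in the levels of the 9 genes was not tested.

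The profiles of the 9 genes over the libraries were compared as a description, with no test. Each gene was scaled to its own mean and SD on the log2 CPM scale, and its root mean square difference from the mean profile of the 9, itself rescaled to an SD of 1, was taken over 15 libraries. That difference was 0.574 for Olig1, 0.911 for Vcan, 0.938 for Ptprz1, 0.939 for Bcas1, 0.948 for Gpr17, 1.15 for Olig2, 1.18 for Pdgfra, 1.47 for Cspg4 and 1.51 for Sox10. Among the members Olig1 was closest to the mean profile, and Cspg4 and Sox10 were the farthest. Each member is part of that mean and other genes are not, so the values of the members cannot be set against those of other genes. Among 6591 other genes with a mean of at least 20 CPM, whose median difference was 1.36, the nearest were Ctxn2 (0.554), Atp6v1a (0.578), H1f0 (0.596), Ube3a (0.608) and Pnpla8 (0.623). None of these 5 is on the lineage lists.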

How the data were processed

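The authors deposited raw read counts per gene for 15 QuantSeq 3′ libraries of mouse brain. STAR, HTSeq, edgeR and the build mm10 are named in the submitters' processing notes. Their versions, the annotation and the strand setting are not stated there. Reads lost or split between near-identical genes, and priming at internal A-rich stretches, can shift single counts. Coordinates are from GENCODE M21 on GRCm38, the assembly mm10 names, where 30271 of 30386 identifiers matched.

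Groups came from the sample titles. Genes were filtered with filterByExpr, leaving 11718, scaled by TMM and fitted with edgeR 4.0.16 (glmQLFit, glmQLFTest; R 4.3.3) over all 15 libraries with 1 mean per group, giving a biological coefficient of variation of 0.181. P-values were adjusted by Benjamini-Hochberg over all 11718 genes, and a gene was called at an adjusted p under 0.05. CPM are TMM-scaled. Floors of 3 counts cover counting error only. Alternatives used DESeq2 1.42.0, limma-voom 3.58.1, other size factors, filters, thinning, the 2 groups alone, a replicate block and leaving out single libraries. Another took totals without Gm42418 and mitochondrial genes. All 9 members are named, and up to 4 genes of smallest p per lineage list. The members and lists were chosen with earlier results of these data known.

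Pairs of libraries within a group differed by a chi-square of 3.14 to 9.13 per gene, and Het_PBS replicate 5 and Het_B12 replicate 1 by 11.3, so none was treated as a duplicate.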

Additional observations from a re-analysis of the deposited data

Results flagged for a closer look

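In 75 sets of 5 libraries checked for a single value far from the others, 2 were found, and chance marks about 1 in 20 such sets. Gpr17 in WT_PBS replicate 1 stood at 10.3 CPM, below the other WT_PBS libraries at 17.4 to 18.8 CPM. The ratio of Olig1 to Olig2 reads in Het_B12 replicate 4 stood at 3.45, above the other Het_B12 libraries.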

How the results depend on the processing

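The 21 alternatives per comparison held 2 chosen after seeing the data, an offset for transcript length and leaving out WT_PBS replicate 3 with Het_PBS replicate 5. Against Het_PBS 1 member was called under all 21, with Bcas1 at −0.62 to −0.48 (adjusted p 0.000557 to 0.0231); between Het_PBS and WT_PBS 0 were called under all 21. Against WT_PBS the count was 2, with a range of 1 to 3 on leaving out 1 library, and Ptprz1 ran from −0.49 to −0.36 (adjusted p up to 0.0496). A mean count of at least 50 left out Pdgfra, Cspg4 and Gpr17, which then had no value. Signs turned only for members far from a call. Leaving out 1 library gave, against Het_PBS, −0.11 to 0.15 for Olig2 and −0.11 to 0.47 for Gpr17, and against WT_PBS −0.24 to 0.024 for Gpr17. In Het_PBS against WT_PBS it gave −0.22 to 0.26 for Pdgfra, −0.19 to 0.14 for Cspg4, −0.14 to 0.15 for Olig1, −0.029 to 0.24 for Sox10, −0.57 to 0.0087 for Gpr17 and −0.022 to 0.18 for Bcas1. In that comparison Pdgfra was −0.019 with limma-voom, −0.054 after thinning and −0.32 without both libraries; Cspg4 was 0.043 with limma-voom and 0.015 without both; Olig1 was −0.092 and Bcas1 −0.050 without both. With the length offset Gpr17 was −0.00044 against Het_PBS. The cause of these was not tested. Calls over all genes were 549 to 743 against Het_PBS on leaving out 1 library (851 with all), 0 to 14 between Het_PBS and WT_PBS (0 with all, 40 with no filter, 1 after thinning, 1 without both libraries) and 449 to 1268 against WT_PBS (859 with all, 1390 without both).

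Groups share replicate numbers in the titles, but the numbers did not pair the libraries: of 15 same-numbered pairs 1 had a correlation of deviations over 0.1 (range −0.0933 to 0.106), and 5 of 15 libraries correlated best with their own number. With the number as a replicate block the members called were 1 against Het_PBS, 0 between Het_PBS and WT_PBS and 2 against WT_PBS, and all genes called were 830, 0 and 800. Pdgfra, Cspg4 and Gpr17 had 10 to 63 reads per library, and their 95% intervals were the widest of the 9 in every comparison.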

Other observations

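Further ratios between members were read within each library. Olig1 reads per Olig2 read averaged 2.45 ± 0.570 in Het_B12, 2.91 ± 0.565 in Het_PBS and 3.27 ± 0.788 in WT_PBS (SD, n = 5 each), and the ranges of the 3 groups overlapped. Bcas1 reads per Ptprz1 read averaged 0.861 ± 0.177 in Het_B12, 1.10 ± 0.0707 in Het_PBS and 0.900 ± 0.229 in WT_PBS, also with overlap. As a share of all counts, before scaling, the 9 genes took 0.0689% ± 0.00444 in Het_B12, 0.0746% ± 0.00750 in Het_PBS and 0.0773% ± 0.00697 in WT_PBS. The ranges overlapped, at 0.0620% to 0.0731% in Het_B12, 0.0685% to 0.0844% in Het_PBS and 0.0675% to 0.0866% in WT_PBS.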
